A study of Bos taurus with 6 samples.

Results

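The 10 genes described here encode disulfide isomerases, oxidoreductases and related proteins in the lumen of the endoplasmic reticulum (ER). They are P4HB, PDIA3, PDIA4, PDIA5, PDIA6, TXNDC5, TXNDC16, ERP44, ERO1A and FOXRED2, and they were found by exact match of their gene symbols among the 36075 genes of the deposited table, where each symbol stood under a single Ensembl identifier. RNA came from bovine blastocysts obtained by in vitro maturation, fertilization and culture of oocytes from slaughterhouse ovaries. In the MT-treated group, melatonin (MT) was added at 1e-07 mol/L to the maturation medium for 22 h, and the control group was matured for the same time without MT. There were 3 libraries per group, each prepared from a pool of 3 blastocysts, with the replicates of a group taken from separate in vitro production runs. The paper states that the oocytes of a run were mixed, divided at random among the treatments and handled side by side. The labels do not say which control and MT-treated libraries share a run. MT was thus given to oocytes with their cumulus cells, and whole blastocysts were measured, so that fewer cells of a type and less RNA per cell cannot be told apart.

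Proteins that enter the secretory pathway acquire their disulfide bonds in the ER. Protein disulfide isomerases carry thioredoxin-like domains with paired cysteines that pass a disulfide to a client protein or reshuffle a wrong one, and ERO1 oxidases recharge them by handing electrons to oxygen, a reaction that releases hydrogen peroxide. Several of these enzymes are induced when unfolded proteins accumulate, and some work in fixed company, such as PDIA3 with the lectin chaperones calnexin and calreticulin, or P4HB with the alpha subunits of collagen prolyl 4-hydroxylase.

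Values were TPM, which are scaled to gene length and to the total of a library, so levels of different genes can be set side by side, whereas TPM keep no read counts and so do not give the depth behind a value. The listed TPM summed to between 936783 and 937698 in the control libraries and to between 912686 and 913707 in the MT-treated libraries, and between 8854 and 8953 genes were above 0 in control against 14372 to 14408 in MT-treated blastocysts. Of the 11953 genes tested, 4037 were listed at 0 in every control library and 360 in every MT-treated library. Trophectoderm keratins KRT8 and KRT18 were abundant in all libraries, the trophectoderm factors GATA2, GATA3 and TFAP2C were detected in each of them (6.75 to 22.55 TPM in control and 36.2 to 50.35 TPM in MT-treated libraries), and POU5F1 of the inner cell mass lay between 188 and 194 TPM throughout. Other defining blastocyst markers were listed at 0 in every control library, namely NANOG (8.23 to 8.93 TPM in the MT-treated libraries), CDX2 (15.03 to 17.2 TPM), PDGFRA (22.5 to 24.2 TPM) and HNF4A (7.68 to 12.0 TPM). Of 7 cumulus and granulosa cell markers in the table, 5 were at 0 in all libraries, and their summed level was 17.2 to 19.2 TPM in control and 15.03 to 17.1 TPM in MT-treated blastocysts, nearly all of it FSHR. Of 6 oocyte markers, 5 were at 0 throughout, and the summed level was 0 in control and 0.52 to 0.89 TPM in MT-treated blastocysts. The part of these differences between the groups in the results below was not tested.

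All 10 genes were above 0 in all 6 libraries, all 10 passed the filter on low values, and for none of the 10 did control and MT-treated values overlap. In the MT-treated group 5 were higher (P4HB, ERP44, ERO1A, TXNDC5 and TXNDC16) and 5 were lower (PDIA3, PDIA4, PDIA5, PDIA6 and FOXRED2) at an adjusted p-value under 0.05 (limma on log2(TPM + 1), Benjamini-Hochberg adjustment over all tested genes). Of all tested genes, 95.7% were called, 61.6% higher and 34.1% lower. The groups lay apart for 96.1%, 61.9% higher and 34.2% lower, so neither the calls nor the lack of overlap set these enzymes apart from other genes. All 10 belong to the 6925 genes that were tested and never listed at 0, of which 40.6% were called higher and 52.3% lower. The median log2 difference was -0.19 over the 10 genes and -0.19 over those 6925 genes. For any single gene, 3 libraries against 3 cannot give a p-value below 0.1 in an exact permutation test (two-sided).

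**Figure D1:**
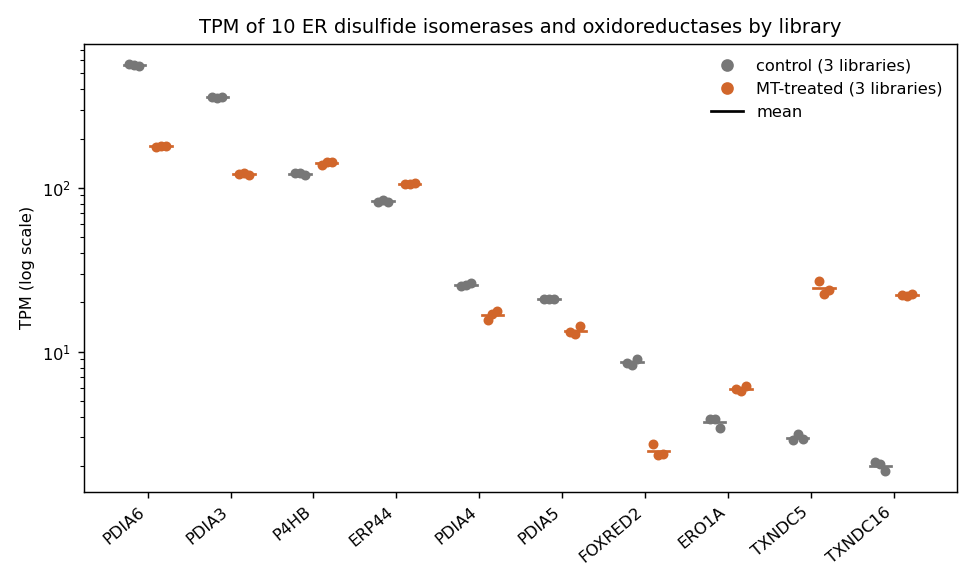
TPM of each gene (log axis) in the 3 control libraries (grey) and the 3 MT-treated libraries (orange), with the group means as bars and genes in order of their control mean. PDIA6 and PDIA3 lie far above the rest in control, whereas in the MT-treated group the means of PDIA6, P4HB, PDIA3 and ERP44 lie between 106 and 179.6 TPM.

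The groups differed in which enzymes made up the set. PDIA6 and PDIA3 together made up 77.6%, 77.2% and 77.3% of the summed TPM of the 10 genes in control and 47.5%, 47.7% and 47.2% after MT treatment. The sum itself was 1196, 1191 and 1177 TPM in control and 629, 636 and 638 TPM in MT-treated blastocysts. The other 8 genes summed to 268, 272 and 267 TPM in control and to 329.8, 332 and 337 TPM in the MT-treated libraries. A single factor per library leaves these shares as they are, and they were not computed after quantile normalization. The share of P4HB was 10.3% ± 0.0790 in control and 22.4% ± 0.358 after MT treatment, and that of ERP44 went from 6.97% ± 0.111 to 16.7% ± 0.0781 (SD, n = 3 each), whereas the share of PDIA6 went from 47.3% ± 0.257 to 28.3% ± 0.121 and that of PDIA3 from 30.1% ± 0.212 to 19.2% ± 0.374 (SD, n = 3 each). These sums and shares are descriptions and were not tested.

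**Figure D2:**
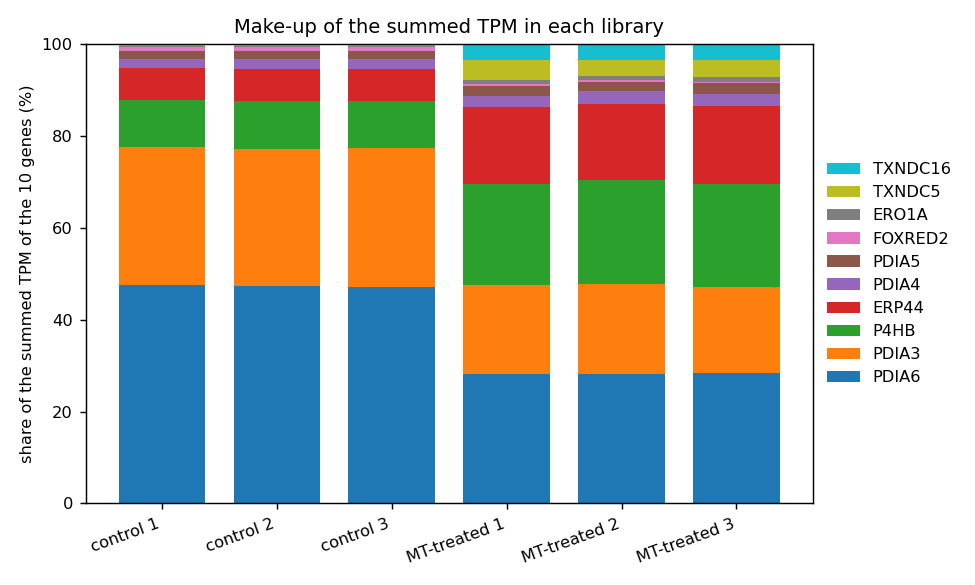
Share of the summed TPM of the 10 genes (percent, stacked bars from 0 to 100) taken by each gene in each of the 6 libraries. PDIA6 and PDIA3 (the lowest blocks) fill 77.2% to 77.6% of each control bar and 47.2% to 47.7% of each MT-treated bar, and TXNDC5 and TXNDC16 at the top are visible only in the MT-treated bars.

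In control blastocysts the order of levels was PDIA6, PDIA3, P4HB, ERP44, PDIA4, PDIA5, FOXRED2, ERO1A, TXNDC5 and TXNDC16, and each gene lay apart from the next over the 3 libraries. In MT-treated blastocysts it was PDIA6, P4HB, PDIA3, ERP44, TXNDC5, TXNDC16, PDIA4, PDIA5, ERO1A and FOXRED2, and only TXNDC5 and TXNDC16 overlapped with each other. FOXRED2 thus went from the seventh place to the last, and TXNDC5 and TXNDC16 from the last places to the middle. Replicates were close, with coefficients of variation between 0.523% (PDIA3) and 7.13% (ERO1A) in control and between 1.04% (ERP44) and 9.92% (TXNDC5) in MT-treated blastocysts. Over all tested genes, the lowest correlation of log2 values within a group was 0.991 and the highest between groups was 0.546. Anything else that the libraries of a group have in common cannot be told apart from MT.

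Among the abundant isomerases, PDIA6 (ENSBTAG00000001928), which associates with the ER chaperone HSPA5, stood at 569, 564 and 554 TPM in control and at 178, 179.6 and 182 TPM after MT treatment. It was the highest of the 10 genes in both groups, with no overlap between the groups. The mean fell 3.13-fold (log2 difference -1.64, standard error 0.02, adjusted p = 1.36e-09 by limma). PDIA3 (ENSBTAG00000017196), the isomerase of the calnexin and calreticulin cycle that folds N-glycosylated proteins, had 359.5, 356 and 357 TPM in control and 121, 124 and 119.5 TPM in MT-treated libraries. Its fall was 2.94-fold (log2 difference -1.55, standard error 0.02, adjusted p = 1.98e-09 by limma) and brought it below P4HB. Both genes fell together, and the ratio of PDIA6 to PDIA3 was 1.57 ± 0.0179 in control and 1.48 ± 0.0353 after MT treatment (SD, n = 3 each). At the PDIA6 and PDIA3 loci, annotation of another assembly places ATP6V1C2 over PDIA6 and CATSPER2 over PDIA3. ATP6V1C2 was at 2.43 to 2.86 TPM in control and 5.86 to 7.16 TPM in MT-treated libraries, and CATSPER2 was listed at 0 throughout.

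P4HB (ENSBTAG00000006045), the classical protein disulfide isomerase and the beta subunit of collagen prolyl 4-hydroxylase, went the other way. It had 123, 123.5 and 120.2 TPM in control and 138, 144 and 143 TPM in MT-treated libraries, a rise of 1.16-fold (log2 difference 0.21, 95% interval 0.16 to 0.27, adjusted p = 0.000137 by limma). This was the smallest log2 difference of the 10 genes as deposited, and the groups did not overlap. ERP44 (ENSBTAG00000009804), which retains ERO1 oxidases and PRDX4 in the early secretory pathway, had 81.9, 84.1 and 82.4 TPM in control and 105, 106 and 107 TPM in MT-treated libraries. Its mean rose 1.28-fold (log2 difference 0.35, 95% interval 0.30 to 0.40, adjusted p = 4.07e-06 by limma). STX17, which overlaps ERP44 in the other assembly, stood at 0 in all control libraries and at 19.8, 16.6 and 16.4 TPM after MT treatment, and its part in the rise of ERP44 was not tested. Strand use in counting is not stated, and which reads of the overlapping genes could be shared was not examined. The ratio of P4HB to ERP44 was 1.48 ± 0.0216 in control and 1.34 ± 0.0239 after MT treatment (SD, n = 3 each), while that of PDIA6 to P4HB was 4.60 ± 0.0324 and 1.27 ± 0.0201 (SD, n = 3 each).

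PDIA4 and PDIA5 were less abundant and both were lower after MT treatment, by an amount that depended on the scaling. PDIA4 (ENSBTAG00000017143), an isomerase with an additional thioredoxin-like domain, had 25.1, 25.45 and 26.4 TPM in control and 15.65, 16.9 and 17.6 TPM in MT-treated libraries (log2 difference -0.59, standard error 0.05, adjusted p = 3.43e-05 by limma). PDIA5 (ENSBTAG00000018877), which has been linked to the activation of the stress sensor ATF6, had 20.9, 21.1 and 20.9 TPM in control and 13.2, 12.9 and 14.3 TPM in MT-treated libraries (log2 difference -0.61, standard error 0.04, adjusted p = 1.36e-05 by limma). The falls of the means were 1.53-fold and 1.56-fold. After median centring PDIA4 was no longer called (-0.11, adjusted p = 0.0627 by limma) and PDIA5 was at -0.13 (adjusted p = 0.0241 by limma), and after quantile normalization they were at -1.02 and -1.64. LOC100336368, which overlaps PDIA4 in another assembly, was not matched to a value. The ratio of PDIA4 to PDIA5 was 1.198, 1.21 and 1.27 in control and 1.19, 1.31 and 1.24 in MT-treated libraries, and the groups overlapped.

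The largest rises were in TXNDC16 and TXNDC5, which were near the bottom of the set in control. TXNDC16 (ENSBTAG00000010399), also called ERp90, was 2.11, 2.06 and 1.86 TPM in control and 22.03, 22 and 22.6 TPM in MT-treated libraries, an 11.1-fold higher mean (log2 difference 2.95 on the log2(TPM + 1) scale, adjusted p = 5.57e-09 by limma). TXNDC5 (ENSBTAG00000019237), also called ERp46, an efficient donor of disulfides to client proteins, was 2.90, 3.14 and 2.91 TPM in control and 27.1, 22.5 and 23.7 TPM in MT-treated libraries. That was an 8.19-fold higher mean (log2 difference 2.67, standard error 0.07, adjusted p = 1.096e-07 by limma), with MT-treated replicate 1 the highest of the 3. Their mean shares of the set went from 0.169% to 3.50% (TXNDC16) and from 0.251% to 3.86% (TXNDC5). Both differed by more than 1 on this scale, as did 51.0% of all tested genes in the same direction.

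FOXRED2 (ENSBTAG00000000015), also called ERFAD, is a flavoprotein that takes part in ER-associated degradation together with SEL1L, OS9 and DNAJC10, and TXNDC16 is a known binding partner of its product. It had 8.55, 8.34 and 8.98 TPM in control and 2.72, 2.35 and 2.37 TPM in MT-treated libraries, a 3.48-fold fall (log2 difference -1.47, adjusted p = 4.99e-07 by limma). FOXRED2 and TXNDC16 therefore moved in opposite directions. The study picked both from these libraries as differing redox genes, so their direction is not independent evidence. FOXRED2, PDIA3 and PDIA6 fell by at least 1 on the log2(TPM + 1) scale, as did 19.6% of all tested genes. Its partner SEL1L was lower as well, at 16.8, 16.4 and 16.2 TPM in control and 8.58, 9.65 and 8.58 TPM in MT-treated libraries (log2 difference -0.81, -0.34 after median centring and -2.62 after quantile normalization), and the ratio of FOXRED2 to SEL1L went from 0.524 ± 0.0264 to 0.279 ± 0.0368 (SD, n = 3 each).

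ERO1A (ENSBTAG00000015716), the oxidase that recharges the isomerases, was 3.87, 3.89 and 3.42 TPM in control and 5.90, 5.76 and 6.15 TPM in MT-treated libraries. The mean was 1.59-fold higher (log2 difference 0.55, standard error 0.05, adjusted p = 6.81e-05 by limma), but after quantile normalization, which gives all libraries the same distribution, the difference was -1.69 (adjusted p = 1.93e-07 by limma). Its paralogue ERO1B fell from 6.82, 6.50 and 6.38 TPM in control to 1.44, 1.26 and 1.53 TPM in MT-treated libraries (log2 difference -1.65, adjusted p = 2.30e-07 by limma). The predominant oxidase transcript thus differed between the groups, with an ERO1A to ERO1B ratio of 0.567, 0.598 and 0.536 in control and of 4.10, 4.57 and 4.02 in MT-treated libraries. A single factor per library leaves this ratio as it is, whereas quantile normalization does not, and after it ERO1B was at -2.86 beside -1.69 for ERO1A. Their sum was 10.3 ± 0.453 TPM in control and 7.35 ± 0.330 TPM in MT-treated blastocysts (SD, n = 3 each).

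The scaling of the libraries bears on the smaller changes. Over 5988 genes that reached a TPM of 1 in each library, the median of log2(TPM + 1) was lower in the MT-treated libraries by a shift of -0.48. Relative to that shift, PDIA6 and PDIA3 were at -1.16 and -1.07, FOXRED2 at -0.99, P4HB at 0.69, ERP44 at 0.83, ERO1A at 1.03, TXNDC5 at 3.15 and TXNDC16 at 3.43. PDIA4 and PDIA5 lay close to it, as given above. After median centring 5 of the 10 genes were called higher and 4 lower, where 70.4% and 25.4% of all tested genes were. After quantile normalization the rises of TXNDC16 and TXNDC5 were smaller, at 1.78 and 1.73, and those of P4HB and ERP44 were 0.47 and 0.63. The falls were -1.45 for PDIA6, -1.33 for PDIA3 and -2.81 for FOXRED2. In all, 4 of the 10 were called higher and 6 lower, where 46.4% and 44.4% of all tested genes were. ERO1A was the gene that changed direction, at a low level where this scaling has the limit given above.

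**Figure D3:**
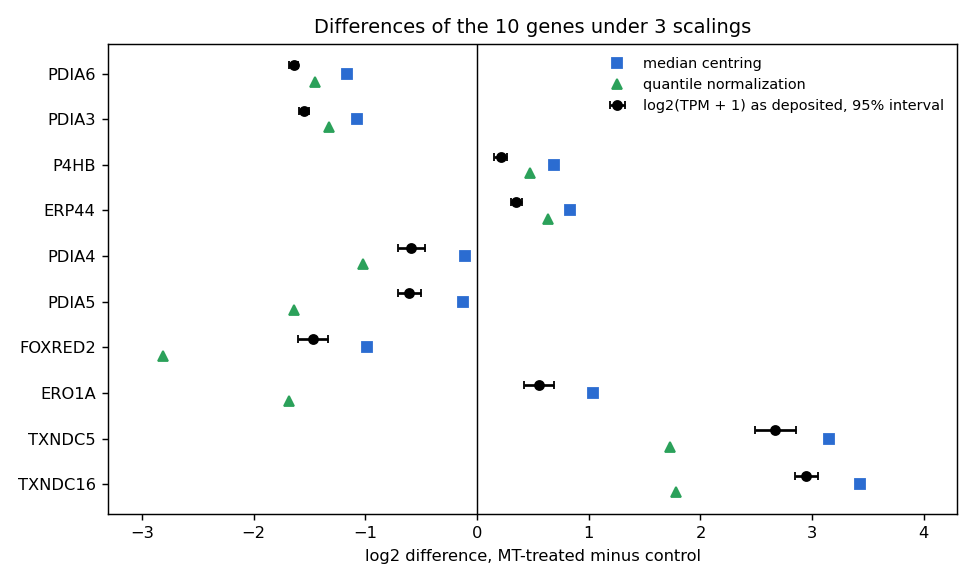
Log2 difference of each gene, MT-treated minus control, from log2(TPM + 1) as deposited (black, with 95% intervals from limma), after median centring (blue squares) and after quantile normalization (green triangles). ERO1A changes side only after quantile normalization, at -1.69, and PDIA4 and PDIA5 lie near 0 only after median centring, at -0.11 and -0.13.

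The partners of these enzymes were described from a list of 20 genes whose products bind or regulate them. Of 17 that reached the level required for testing, 12 were lower and 5 higher in the MT-treated group, and of the higher ones ITPR1, SUMF1 and ERAP1 were listed at 0 in every control library. Of all tested genes 34.1% were called lower and 61.6% higher, and of those never listed at 0 the shares were 52.3% and 40.6%. The 14 partners above 0 in all libraries had a median log2 difference of -0.78, beside -0.19 over all such genes. CALR (calreticulin) fell from 457, 452 and 456 TPM in control to 137.85, 137.86 and 144 TPM in MT-treated libraries (log2 difference -1.69, adjusted p = 3.796e-09 by limma), close to the fall of PDIA3. The ratio of PDIA3 to CALR was 0.785 ± 0.00337 in control and 0.868 ± 0.0361 after MT treatment (SD, n = 3 each). CANX (calnexin), the membrane-bound lectin of the same cycle, had 119, 125 and 125 TPM in control and 92.8, 99.5 and 99.9 TPM in MT-treated libraries, a log2 difference of -0.33 (adjusted p = 0.000144 by limma) that turned into a call of higher after median centring (0.15, adjusted p = 0.00684 by limma) and was not called after quantile normalization (-0.05, adjusted p = 0.25 by limma). The ratio of PDIA3 to CANX went from 2.91 ± 0.0895 to 1.25 ± 0.0558 (SD, n = 3 each).

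HSPA5, the central ER chaperone of the HSP70 family, had 379, 379.5 and 384 TPM in control and 229.7, 238 and 236 TPM in MT-treated libraries (log2 difference -0.70, adjusted p = 6.255e-08 by limma, and -0.22 after median centring). The ratio of PDIA6 to HSPA5 was 1.499, 1.49 and 1.44 in control and 0.773, 0.756 and 0.770 in MT-treated libraries, and did not overlap between the groups. SIL1, which exchanges the nucleotide of HSPA5, fell from 28.5 ± 1.10 to 6.01 ± 0.650 TPM, and OS9, a lectin of ER-associated degradation, from 53.4 ± 3.72 to 17.1 ± 1.89 TPM (SD, n = 3 each). SUMF1, a client that ERP44 retains, was at 9.42, 10.24 and 9.49 TPM after MT treatment and at 0 in control. ITPR1, a calcium channel that ERP44 regulates, had 43.4, 44.8 and 46.2 TPM after MT treatment, and ERAP1, which trims peptides in the ER, had 7.84, 6.76 and 6.69 TPM, both from 0 in control.

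The alpha subunits that pair with P4HB in collagen prolyl 4-hydroxylase moved in opposite directions. P4HA1 fell from 29.3, 33.6 and 32.2 TPM in control to 15.8, 17.1 and 15.7 TPM in MT-treated libraries (log2 difference -0.92, adjusted p = 9.31e-06 by limma, and -0.45 after median centring). P4HA2, singled out after its values were seen, rose from 10.15 ± 0.314 to 35.3 ± 0.499 TPM (SD, n = 3 each, log2 difference 1.70, adjusted p = 1.71e-08 by limma). Their sum was 39.4, 43.4 and 42.7 TPM in control and 50.5, 52.7 and 51.3 TPM in MT-treated libraries. The ratio of P4HB to this sum was 3.11, 2.84 and 2.82 in control and 2.74, 2.74 and 2.79 in MT-treated libraries, a difference of -0.172 that was close to the control SD of 0.165, although the groups did not overlap. P4HA3 was listed at 0 in all 6 libraries, as was MTTP, the other protein known to use P4HB as a subunit.

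**Figure D4:**
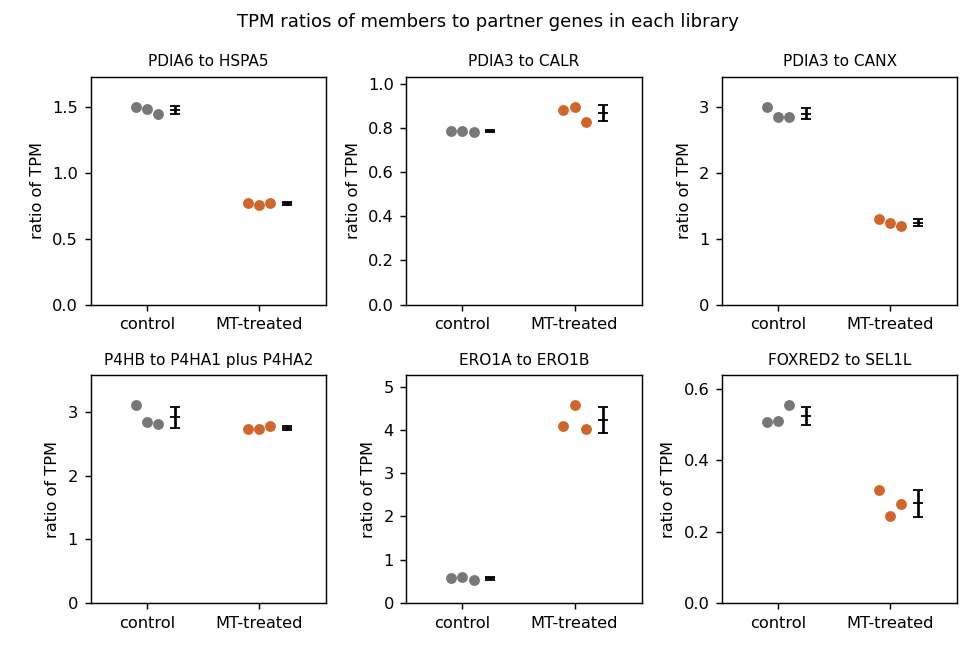
Ratios of TPM within each library (vertical axes start at 0) for pairs of a member and its partner, with the 3 control libraries in grey, the 3 MT-treated libraries in orange and the mean ± SD in black. The ratios of PDIA3 to CALR and of P4HB to the sum of P4HA1 and P4HA2 are 0.785 and 2.93 in control and 0.868 and 2.75 after MT treatment, whereas ERO1A to ERO1B goes from 0.567 to 4.23.

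Of 28 other genes for ER thiol enzymes and related proteins, 20 were tested. Of these, 10 were higher and 10 lower, where 61.6% and 34.1% of all tested genes were. Of the 10 higher ones, 6 were listed at 0 in every control library, and the 13 genes above 0 in all libraries had a median log2 difference of -0.45, where all genes of that class had -0.19. PRDX4, the peroxiredoxin that uses the hydrogen peroxide made by ERO1 to form further disulfides, rose from 154, 153 and 158 TPM in control to 218, 212 and 207.5 TPM in MT-treated libraries (log2 difference 0.45, adjusted p = 3.38e-06 by limma, and 0.93 after median centring). It moved with ERP44, which retains it, and the ratio of ERP44 to PRDX4 was 0.535 ± 0.0142 in control and 0.499 ± 0.0175 after MT treatment (SD, n = 3 each). CRELD2, a stress-induced ER protein with isomerase activity, had 1.47, 1.42 and 1.62 TPM in control and 58.5, 55.5 and 60.8 TPM in MT-treated libraries (adjusted p = 1.81e-09 by limma). TXNDC15 (31.4 to 32.3 TPM in MT-treated libraries) and the ER peroxidase GPX8 (11.6 to 13.2 TPM) were listed at 0 in every control library.

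The falls in that list included AGR2, an isomerase of secretory epithelia, with 42.4, 41.6 and 38.4 TPM in control and a listed value of 0 in every MT-treated library. The membrane-bound isomerases TMX4 and TMX1 fell from 29.3 ± 0.259 to 0.823 ± 0.129 TPM and from 98.6 ± 1.32 to 30.7 ± 0.414 TPM (SD, n = 3 each). The adjusted p of TMX1 was 4.06e-09 by limma. AGR2 and TMX4 passed the filter on low values only through the control libraries, where they were high, so no p-value is given for them. PDILT, AGR3 and GPX7 were listed at 0 in all 6 libraries.

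The unfolded protein response controls the transcription of many ER isomerases. Of 9 of its sensors, factors and target genes, 7 were tested. In the MT-treated group 5 were lower and 2 higher, where 34.1% and 61.6% of all tested genes were. The lower ones included HERPUD1 (log2 difference -1.60) and DNAJB9 (-1.67), which are target genes rather than sensors or factors. Of the whole list, the 6 tested genes above 0 in all libraries had a median log2 difference of -1.78, again beside -0.19. XBP1 fell from 231, 225 and 226 TPM in control to 58.0, 60.9 and 62.1 TPM in MT-treated libraries (log2 difference -1.90, adjusted p = 7.34e-09 by limma). ATF6 fell from 46.4 ± 0.307 to 8.41 ± 0.618 TPM and DDIT3, a transcription factor known to activate ERO1A, from 153 ± 2.13 to 38.5 ± 1.54 TPM (SD, n = 3 each, adjusted p of 3.35e-08 and 1.06e-08 by limma). ATF4, in contrast, was 298, 303 and 293 TPM in control and 334, 338 and 329 TPM in MT-treated libraries (log2 difference 0.16, adjusted p = 0.000173 by limma, 0.64 after median centring and 0.32 after quantile normalization). ATF6B was at 18.5, 16.2 and 16.9 TPM after MT treatment and at 0 in control, and ERN1 was listed at 0 throughout.

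Proteins of the basement membrane and extracellular matrix, which are secreted through the ER and contain disulfides, were taken as a list of 11 potential clients. All 11 were tested and above 0 in all libraries, and 7 were higher and 3 lower. The shares were 61.6% and 34.1% over all tested genes, and 40.6% and 52.3% over those never listed at 0. The median log2 difference was 0.48, beside the same -0.19. LAMA1, HSPG2 and FN1 rose from 0.133 ± 0.00577 to 12.7 ± 0.146, from 2.23 ± 0.139 to 15.6 ± 0.594 and from 206 ± 1.49 to 461 ± 3.21 TPM (SD, n = 3 each). LAMC1, the gamma chain that most laminins contain, fell from 636, 624 and 642 TPM in control to 5.91, 5.78 and 6.33 TPM in MT-treated libraries (log2 difference -6.50, adjusted p = 5.704e-10 by limma). NID2 and SPARC fell from 39.1 ± 1.53 to 3.95 ± 0.432 and from 165 ± 3.44 to 55.5 ± 0.549 TPM (SD, n = 3 each). COL4A2, named after its values were seen, did not pass the test, with 2.17, 1.85 and 2.12 TPM in control and 2.09, 3.90 and 2.01 TPM in MT-treated libraries. It was called in opposite directions by the other scalings, at 0.71 after median centring (adjusted p = 0.0123 by limma) and -1.78 after quantile normalization (adjusted p = 1.31e-05 by limma). After quantile normalization the list held 5 higher and 6 lower genes, where 46.4% and 44.4% of all tested genes were. The log2 differences of LAMA1 and HSPG2 were then 0.77 and 0.68 in place of 3.60 and 2.36.

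**Figure D5:**
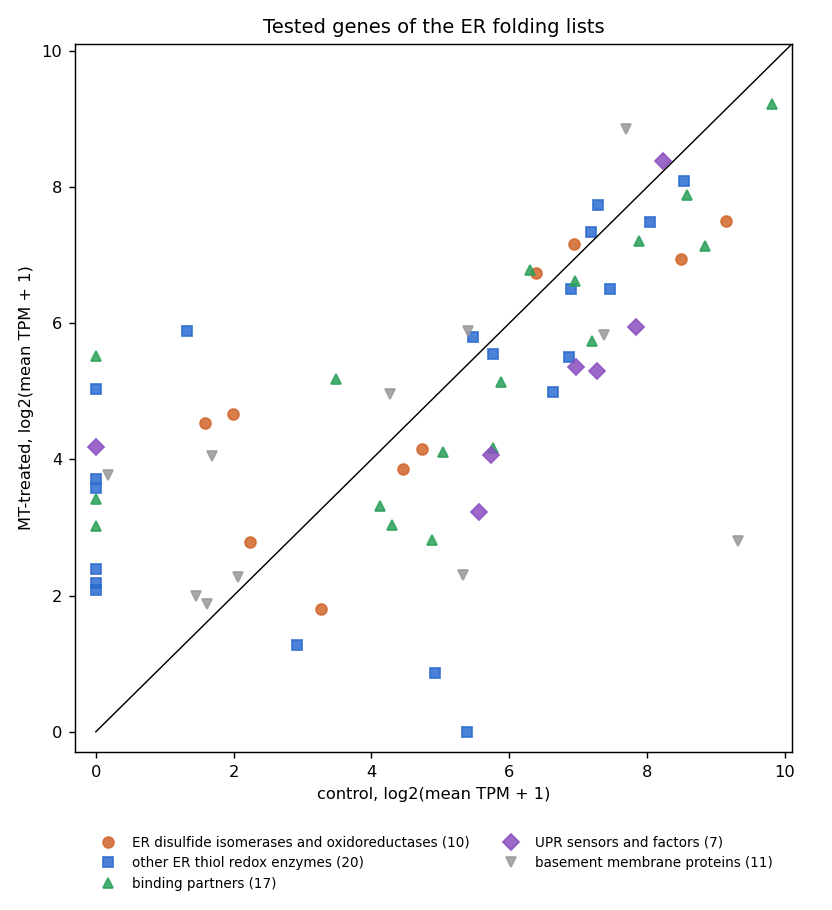
Mean level in MT-treated against control blastocysts on log2(mean TPM + 1) axes for the tested genes of each list, with the line of equal levels. The 10 enzymes (orange circles) lie on both sides of the line, and genes on the left edge were listed at 0 in every control library.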

How the data were processed

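RNA-seq of bovine blastocysts was analysed from 6 libraries, 3 control and 3 MT-treated, grouped and numbered from the sample labels. Per the study's methods and the submitters' processing notes, the authors checked reads with fastp and FastQC 0.11.9, aligned them with STAR 2.7.9a and counted them with featureCounts from Subread 1.6.3. The genome build is ARS-UCD1.2 in those notes and another release in the methods, the library kit is TruSeq in the labels and Smart-seq2 in the methods, and strand use and the step from counts to TPM are not given in the sources used here. The deposited values are TPM with 2 decimals, given for each library. TPM keeps no counts, so no interval for counting error is given, and the sequencing depth per library that the study gives elsewhere was not used here.

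TPM were transformed to log2(TPM + 1), a scale that understates the change of low genes. The test was limma 3.58.1 (R 4.3.3, moderated variances with a mean trend), run on genes that reached 1 TPM in 3 or more libraries, since the count test of the study needs counts. Benjamini-Hochberg adjustment covered all tested genes, with a threshold of 0.05. The fit was tried on simulated data in which only a small part of the genes was changed. In the real data 95.7% of tested genes were called, and the simulation does not cover that setting. Figures were drawn with matplotlib 3.10.9. The members and gene lists were chosen from general knowledge with earlier results of these data known. All 10 members were named. From each other list except the cell type markers, up to 3 called genes with the largest differences in each direction were named, if their groups did not overlap. A further 11 genes were set to be named whatever their values, 6 of which the first rule did not already name. The cell type markers were not named by these rules. Genes at 0 throughout, P4HA2, COL4A2, HERPUD1, DNAJB9, QSOX1, the selenoproteins and the genomic neighbours were named after their values were seen. Overlapping genes were taken by name from the RefSeq annotation of ARS-UCD2.0, in which all 10 members were matched, from the overlap or order of gene spans within that assembly, and its coordinates are not printed. Alternatives were another pseudocount, other filters, median centring, quantile normalization, rescaling to a total of 1000000, no trend, a replicate block and each library left out in turn.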

Additional observations from a re-analysis of the deposited data

How the results depend on the processing

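The 10 genes were fitted under 16 alternatives each. The direction and the call held in all of them except for PDIA4, which was no longer called after median centring (-0.11, adjusted p = 0.0627 by limma), and ERO1A, which was lower after quantile normalization (-1.69). Among the partner genes CANX was called higher after median centring (0.15, adjusted p = 0.00684 by limma) and was not called after quantile normalization (-0.05, adjusted p = 0.25 by limma). With fewer genes entering the fit, those above 0 in all 6 libraries, 4 of the other ER thiol enzymes, 2 partners and 1 unfolded protein response gene were called higher, and after quantile normalization 6 basement membrane genes were lower. The difference of -554 TPM in the summed level of the 10 genes was -573.5 TPM after rescaling to a total of 1000000 and -568 TPM without TXNDC16 and FOXRED2, and the difference of -29.9 percentage points in the share of PDIA6 and PDIA3 was -28.7 without these genes. Leaving out any of the 6 libraries changed no call of the 10 genes. Of all called genes 64.4% were higher, against 73.5% after median centring, 51.1% after quantile normalization and 43.7% among genes above 0 in all libraries. The paper states that the treatments were carried out side by side in each production run, but replicate numbers are not said to mark a shared run. Deviations of same-numbered libraries correlated at 0.0942, -0.000741 and 0.15 across 5988 genes, and control replicate 2 did not correlate best with its own number. The replicate block gave 7379 higher and 4082 lower genes in place of 7367 and 4071, with 5 of the 10 genes in each direction. TPM keeps no read counts, which limits what can be said of genes listed at 0.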

Other observations

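Genes that lie next to the 10 enzymes in the annotation of ARS-UCD2.0 were looked up after the values of the enzymes were known. All 13 member and neighbour pairs with a tested neighbour had a called one, where 95.7% of all tested genes were called. Of these pairs, 6 had the same direction and 7 the opposite one. GPR137C counts among the opposite ones under both ERO1A and TXNDC16. NOL10 beside PDIA6 (log2 difference -1.65), EZH2 beside PDIA4 (-1.78) and ARHGDIA beside P4HB (0.62) were among those with the same direction. GPR137C, which stands between ERO1A and TXNDC16, had 105, 103 and 102 TPM in control and 5.79, 6.09 and 6.27 TPM in MT-treated libraries (log2 difference -3.89, adjusted p = 8.44e-10 by limma), whereas both of its neighbours were higher in the MT-treated group, ERO1A with the exception of quantile normalization. BMP6, which lies next to TXNDC5, had 0.17, 1.3 and 0 TPM in control and 19.7, 22.3 and 20.4 TPM in MT-treated libraries. It passed the filter on low values only through the MT-treated group, where it was high, so no p-value is given for it. BLOC1S5 on the other side of TXNDC5 fell from 28.3 ± 1.53 to 19.9 ± 2.63 TPM (SD, n = 3 each, adjusted p = 0.00249 by limma). INVS beside ERP44 stood at 16.5, 16.8 and 14.1 TPM after MT treatment and at 0 in control. FOXRED2 lies between TXN2, the mitochondrial thioredoxin, and the translation factor gene EIF3D. TXN2 fell from 220 ± 1.62 to 191 ± 0.700 TPM, and EIF3D rose from 59.6 ± 1.54 to 142 ± 3.89 TPM (SD, n = 3 each, adjusted p of 1.19e-05 and 5.76e-08 by limma), while FOXRED2 fell. The log2 differences of TXN2 (-0.20) and BLOC1S5 (-0.50) can be set beside the shift of -0.48 between the library medians.

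Among selenoproteins and small redox proteins of the ER, SELENOF fell from 368.5 ± 7.25 to 270 ± 1.91 TPM, SELENOS from 118 ± 0.736 to 89.6 ± 0.976 TPM and VKORC1 from 53.0 ± 1.79 to 45.6 ± 3.00 TPM (SD, n = 3 each), but the direction depended on the scaling. After median centring SELENOS (0.08, adjusted p = 0.00607 by limma) and VKORC1 (0.26, adjusted p = 0.00394 by limma) were called higher and SELENOF was at 0.03, whereas after quantile normalization SELENOF (-0.29, adjusted p = 8.29e-06 by limma) and SELENOS (-0.10, adjusted p = 0.00159 by limma) were called lower and VKORC1 was at 0.10 (adjusted p = 0.13 by limma). SELENOT rose from 144 ± 2.52 to 161 ± 8.76 TPM (SD, n = 3 each, adjusted p = 0.0115 by limma). These genes were named after their values were seen.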
